A study of Mus musculus with 20 samples.

Results

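The table of stem cell and fibroblast libraries held 282 loci that carried no gene name and were named only by a position and the tag lncRNA, for long noncoding RNA. They were taken by that tag alone, out of 42115 rows that held values, and 1 further locus with the same tag is not analysed here. The rule itself used no measured value, but it was set with earlier results of these data known. They lay on 20 chromosomes, with 44 on chromosome X and 22 on chromosome 13, and spanned a median of 1904 bp, from 131 to 430229 bp. All positions are on the mouse genome build mm9, as the names in the table give them.

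A long noncoding RNA is a transcript that is not translated into protein. Many are spliced and carry a poly(A) tail like messenger RNA, yet they tend to be present at low levels and in few cell types, so catalogues of them are built by assembling reads that fall outside known genes. Some of them act on chromatin. Xist coats and silences an X chromosome, its antisense partner Tsix restrains it, and Firre, an X-linked nuclear RNA listed here under its older name 6720401G13Rik, holds distant chromosome regions together.

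The libraries were made from poly(A) RNA of untreated lines and were used to look for candidate noncoding RNAs. Wild type mouse embryonic stem cells, called mESC here, came as 2 libraries of line E14 (strain 129/Ola) and 2 of line v6.5 (129/svJae x C57BL/6). The reprogramming series, all 129/svJae x C57BL/6 and all carrying Oct4-GFP, had 1 library of embryonic fibroblasts (MEF), 1 library each of the partially reprogrammed lines 11.3 (MCV6, partial 1) and 11.5 (MCV8, partial 2), and 1 library of the fully reprogrammed line MCV8.1 (miPS). The partial and miPS lines had received retroviral Oct4, Sox2, c-myc and Klf4, and each is a single line. Stem and miPS cells were grown on feeder fibroblasts, which were removed by pre-plating, and the partial lines were grown without feeders. Nothing in the labels says whether the 2 libraries of a stem cell line came from separate cultures, so p-values measure the spread between these libraries, which may be technical. With 5 groups in the fit, 3 residual degrees of freedom remained, and the lone MEF and miPS libraries were assumed to vary like the others.

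The libraries held between 7536503 and 23662593 reads, so that 3 reads corresponded to between 0.127 and 0.398 CPM (reads on a row per 1e+06 reads of its library), a floor that covers counting error only. The marker genes fitted the labels in the stem, miPS and MEF libraries. The partial lines had high Pou5f1, the gene of the transduced factor Oct4, at 5807 and 6222 CPM, with Nanog at 0.282 and 0.960 CPM against 226 to 323 CPM in the stem and miPS libraries. The 16 fibroblast markers summed to 94952 CPM in MEF, to between 2769 and 3596 CPM in the stem and miPS libraries and to 1477 and 2360 CPM in the partial lines. Most of the sums in the partial lines was 1 gene, Fn1, at 1172 and 1968 CPM. Of the 16 markers, 4 and 7 were below 1 CPM in the partial lines, against at most 1 in a stem or miPS library. In bulk RNA, fewer cells with a transcript and less of it per cell cannot be told apart.

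The loci were close to silent in every line. Of the 282 loci, 92 had 0 reads in all 8 libraries, 155 had fewer than 3 reads over all libraries together, and 69 had at least 10. A level of 1 CPM was reached by 32 loci, of which 20 reached it in 1 library only, and no locus reached it in more than 6 libraries. Among the other 41832 rows, between 32.3% and 37.1% reached 1 CPM in a given library, while between 0.709% and 6.03% of the loci did.

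The miPS library had the most loci at 1 CPM or more, with 17. The v6.5 libraries had 11 and 7, the partial lines 7 each, MEF 3, and the E14 libraries 2 and 3. The summed level followed nearly the same order. All 282 loci together took 60.6 CPM in miPS, 49.6 and 46.0 CPM in v6.5, 42.3 and 33.8 CPM in the partial lines, 23.1 CPM in MEF, and 13.5 and 12.4 CPM in E14. The v6.5 mean was 47.8 ± 2.55 CPM and the E14 mean 12.9 ± 0.797 CPM (SD, n = 2 each), a ratio of 3.69 with no overlap, for which an exact two-sided permutation test cannot go below p = 0.333. The 217 loci that overlapped no gene showed the same split, at 19.4 and 28.5 CPM in v6.5 and 7.14 and 7.54 CPM in E14. The E14 values also differed in form, since 75.9% and 79.9% of their reads over all rows lay on rows whose value was not whole (to within 1e-09 reads), against 88.4% to 98.3% in the other 6 libraries. Marker genes of other cell types also differed between the 2 lines. The 6 trophectoderm markers summed to 970 and 460 CPM in v6.5 and 154 and 121 CPM in E14, with 4 of 6 higher in both v6.5 libraries and 1, Elf5, lower in both. Most of the v6.5 sums came from Krt8, at 535 and 188 CPM, and Krt18, at 354 and 214 CPM. The 6 endoderm markers summed to 13.8 and 8.32 CPM against 3.41 and 2.07 CPM, with 5 of 6 higher in both v6.5 libraries and Afp at 0 in all 4 libraries. The 3 neural markers with a row summed to 375 and 450 CPM against 181 and 155 CPM, with 1 of 3, Nes, higher in both. The 16 fibroblast markers went the other way in sum, at 2769 and 3214 CPM in v6.5 against 3596 and 3492 CPM in E14. Most of each of these sums was Fn1, at 1721 and 1944 CPM in v6.5 against 2620 and 2599 CPM in E14. Of these 16, 5 were higher in both v6.5 libraries and 1, Fn1, was lower in both. The part of these differences in that of the loci was not tested.

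**Figure D1:**
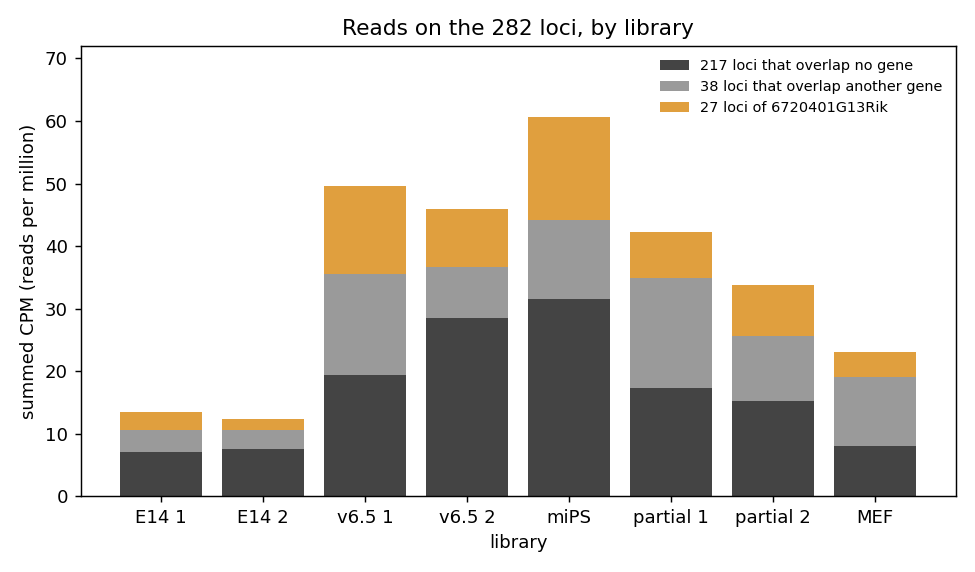
Summed CPM of the 282 loci (y axis) in each of the 8 libraries (x axis), split into loci that overlap no gene, loci of 6720401G13Rik and loci that overlap another gene. The miPS bar is tallest at 60.6 CPM and both E14 bars, at 13.5 and 12.4 CPM, are shortest.

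The deposited TPM values (a length-corrected share of the library) of these loci are mostly not signal. Loci with 0 reads still carried a TPM value, and they made up between 46.6% and 69.2% of the summed TPM of the loci in a library. In the 6 libraries other than E14, the quotient of (reads + 1) and TPM kept the same proportions across libraries for 278 loci, to within a factor of 1.06, so a TPM at 0 reads is the value of 1 added read. Read numbers are used below for that reason. Between 69.6% and 92.6% of the reads of the loci in a library lay in values that were not whole, to within 1e-09 reads. A value that is not whole holds some reads that the authors' counting had split between a locus and other rows, so these percentages are upper limits on the share of split reads.

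Reads were concentrated on few places. The 27 loci inside 6720401G13Rik took 21.9% of the 2718 reads on all loci, and the 65 loci that overlapped some gene took 49.9%. For the remaining 217 loci, the median distance to the nearest gene was 30514 bp. The filter for testing, at least 1 CPM in at least 2 libraries, was passed by 12 loci, which held 38.2% of the reads.

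A single locus passed the test between groups. It lay at chr7:132561028-132561422, 394 bp long and 26767 bp from Jmjd5, a gene of a JmjC-domain hydroxylase, and overlapped no gene. It had 22 and 19 reads in the partial lines, 9 in miPS, 3 in 1 of the v6.5 libraries, and 0 in the other v6.5 library, both E14 libraries and MEF. Both partial lines therefore stood above every stem cell library, at 2.92 and 2.51 CPM against at most 0.384 CPM. The locus passed the filter only through the partial lines and miPS, at 1.18 CPM, which are the libraries where it was high. Its p-value is therefore no independent support for the difference. Lower levels in mESC than in the partial lines gave a log2 fold of -5.97 ± 1.05 (SE; edgeR quasi-likelihood test, adjusted p = 0.0142), and the ratio of the summed reads, 41 against 3, was 55.1 (95% exact interval 17.6 to 278, counting error only). Against the 3-read floor of the MEF library, the partial lines were at least 7.94-fold higher, with an adjusted p of 0.116 in edgeR. Its 9 reads in miPS were at least 16.03-fold above the 3-read floor of both E14 libraries together. Jmjd5 itself had, in mESC against partial, a log2 fold of -0.17 ± 0.37 (SE; edgeR adjusted p = 0.752). The call was lost, at adjusted p of 0.0505, 0.0728 and 0.0601, without E14 replicate 2, partial replicate 1 or partial replicate 2, while the log2 fold stayed between -5.84 and -6.17.

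This was 1 of the 12 loci tested in mESC against partial, where 29.7% of all 16773 rows tested were called; DESeq2 called 2 of the loci and 33.4% of all rows. In mESC against MEF, 0 of the 12 loci were called in edgeR beside 28.6% of all rows, with 2 at an unadjusted p under 0.05, and DESeq2 called 1 beside 33.5%. In partial against MEF, 0 of 12 were called beside 13.8% of all rows, with 1 at an unadjusted p under 0.05 and 0 in DESeq2 beside 20.1%. In miPS against partial, 0 of 12 were called beside 9.88% of all rows, with 3 at an unadjusted p under 0.05 and 0 in DESeq2 beside 15.2%. In miPS against mESC, 0 of 12 were called beside 0.0298% of all rows, with 2 at an unadjusted p under 0.05 and 0 in DESeq2 beside 1.09%. In E14 against v6.5, 0 of 12 were called beside 0.489% of all rows, with 7 at an unadjusted p under 0.05 and 2 in DESeq2 beside 6.78%. Of all 16773 rows, 7325 had an unadjusted edgeR p under 0.05 in mESC against MEF and 4969 in partial against MEF. The numbers were 4314 in miPS against partial, 1334 in miPS against mESC and 3140 in E14 against v6.5.

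Leaving out a v6.5 library raised the calls over the whole table, and those of the loci with them. Without v6.5 replicate 1, when 9 loci were tested, 3 were called in mESC against MEF beside 51.3% of all rows, 5 in mESC against partial beside 51.4%, 1 in partial against MEF beside 29.2%, 1 in miPS against partial beside 22.4% and 1 in E14 against v6.5 beside 3.36%. Without v6.5 replicate 2, when 10 loci were tested, the counts were 2 beside 45.0%, 3 beside 42.4%, 1 beside 29.5%, 2 beside 22.7% and 3 beside 26.3%, in the same order.

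With every row of at least 1 read admitted, 182 loci could be tested. In mESC against MEF 5 were then called, beside 21.3% of all rows, and in mESC against partial 10, beside 21.5%. The counts were 3 in miPS against partial (9.33% of all rows), 1 in partial against MEF (11.9%), 5 in E14 against v6.5 (4.89%) and 0 in miPS against mESC (0.765%). In miPS against mESC, 16 of the 182 loci had an unadjusted p under 0.05 in edgeR, beside 2174 of all 29007 rows. DESeq2, run with the filter, called 0 there. In mESC against partial the 10 loci were 2 higher and 8 lower in mESC, among them the locus near Jmjd5 and chr17:35087738-35089318, both lower in mESC.

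The locus with the highest mean level, chr17:35087738-35089318, overlapped 1110038B12Rik, an annotated transcript. Its reads were 90.3 and 22.1 in the partial lines, 47.4 in MEF, 65.9 and 7.86 in v6.5, 4.72 in miPS, and 0.332 and 0.194 in E14. The stem cell libraries thus overlapped with the partial lines, since v6.5 replicate 1, at 8.43 CPM, stood between the partial lines at 12.0 and 2.93 CPM. None of its values was a whole number. In mESC against partial the log2 fold was -5.07 ± 1.44 (SE; edgeR adjusted p = 0.0518), and the locus was called in DESeq2 (adjusted p = 0.000783) and in edgeR with no filter (adjusted p = 0.000565). In edgeR, adjusted p was 0.00971 without v6.5 replicate 1 and 0.0268 without v6.5 replicate 2, and over all alternatives it ran up to 0.251, without partial replicate 1. In E14 against v6.5 the log2 fold was -8.65 ± 2.28 (SE; edgeR adjusted p = 0.146), where DESeq2 gave an adjusted p of 0.000249, edgeR with no filter 0.00157, and edgeR without E14 replicate 2 the highest of the alternatives, 0.778. In mESC against MEF it was -4.96 ± 1.62 (SE; edgeR adjusted p = 0.0737), where DESeq2 gave 0.00733, edgeR with no filter 0.00270, and edgeR without E14 replicate 2 the highest of the alternatives, 0.144. Of these 3 comparisons, only in mESC against partial did the gene row 1110038B12Rik move the same way, with far less spread. It had 232 and 226 CPM in the partial lines against 70.3 to 89.4 CPM in the stem cells, a log2 fold of -1.50 ± 0.22 (SE, edgeR adjusted p = 0.00640). The gene row did not follow the locus in E14 against v6.5, at 0.06 ± 0.27 (SE, edgeR adjusted p = 0.917). Nor did it in mESC against MEF, at 0.06 ± 0.30 (SE, edgeR adjusted p = 0.905).

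Next in level came chr17:3114257-3114731, 240 bp from Scaf8, a gene of a factor that binds the tail of RNA polymerase II. Its reads were 13.7 and 23.9 in E14, 0.763 and 49.8 in v6.5, 14.2 in miPS, 9.89 and 17.1 in the partial lines and 9.28 in MEF. It reached 1 CPM in 6 libraries, more than any other locus, and the lowest and the highest library were the 2 of v6.5. In none of the 6 comparisons was its edgeR adjusted p below 0.638. The locus was recorded in stem cells, fibroblasts and reprogrammed cells alike.

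The locus chr5:110265764-110486950 overlapped Zfp932, a zinc finger gene, and covered 221186 bp. It had 26.5 and 30.7 reads in E14, 1.95 and 22.2 in v6.5, 31.5 in miPS, 1.02 and 2.48 in the partial lines and 0.716 in MEF. Every stem and miPS library except v6.5 replicate 1 stood above the partial lines and MEF. The log2 fold of miPS over partial was 4.27 ± 1.09 (SE; edgeR adjusted p = 0.0622), and that of mESC over partial was 2.57 ± 0.96 (SE; edgeR adjusted p = 0.0894). With no filter the locus was called in both, at edgeR adjusted p of 0.0105 and 0.0459, where 9.33% and 21.5% of all rows were called. Zfp932 itself had log2 folds of 0.38 ± 0.56 and 1.12 ± 0.42 (SE) in these comparisons, with edgeR adjusted p of 0.751 and 0.0915 in the fit with the filter.

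**Figure D2:**
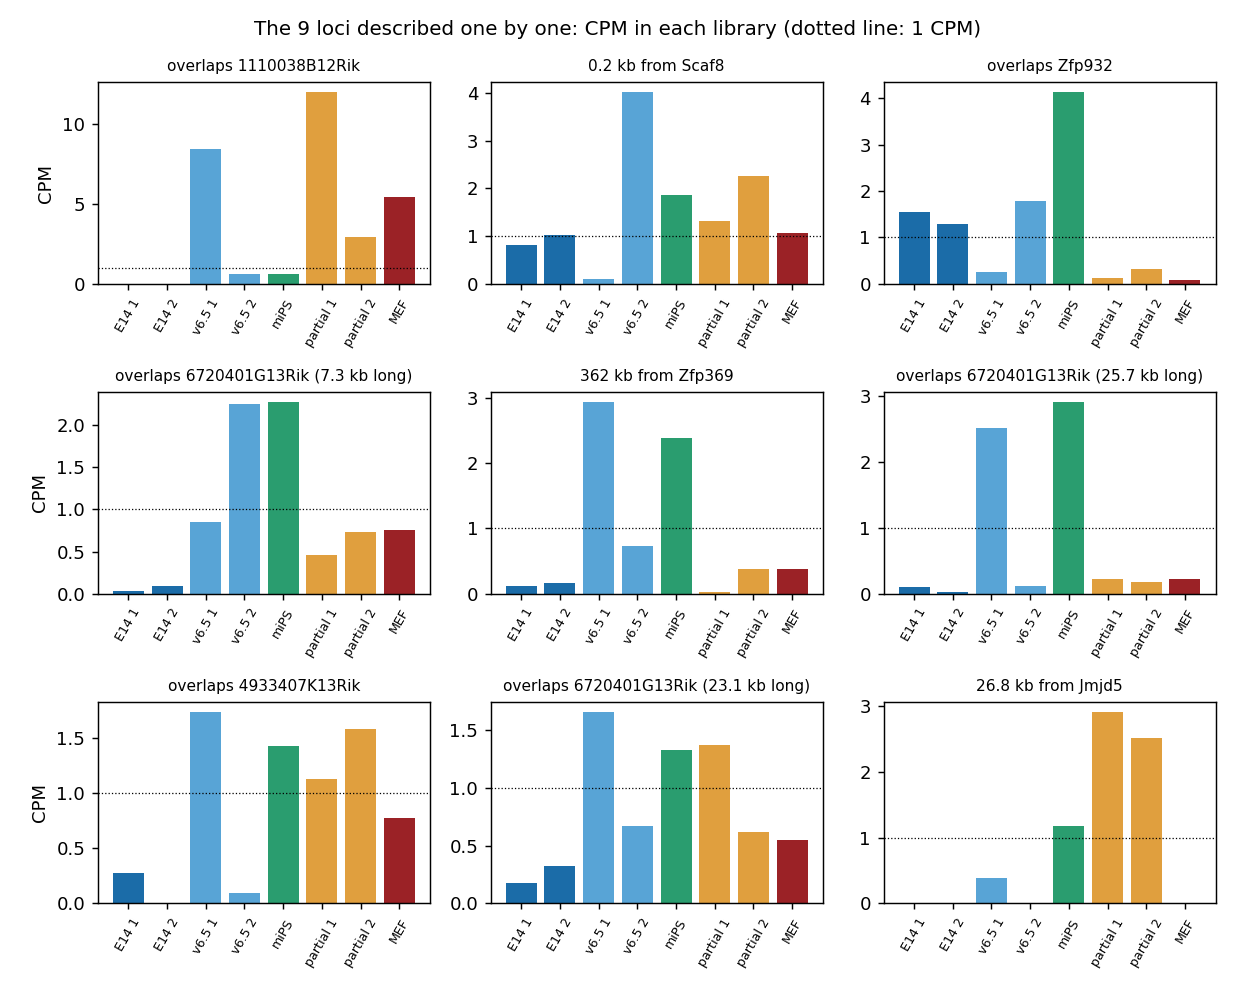
CPM (y axes, each panel on its own scale) of 9 loci in the 8 libraries, the 8 loci with the highest mean level and the called locus near Jmjd5 (last panel); panel titles give the nearest gene. In the last panel the partial lines reach 2.92 and 2.51 CPM, while in several other panels the 2 v6.5 bars differ more than 3-fold.

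The 2 v6.5 libraries often disagreed with each other. Of the 12 loci that passed the filter, 10 reached 1 CPM in a v6.5 library, and 7 of these differed more than 3-fold between the 2. The partial lines differed that much at 1 of 6 such loci, and the E14 libraries at 0 of 3. An example is chrX:72987232-72992088, which overlapped 4933407K13Rik, the transcript of an X-linked repeat region. It had 13.6 and 1.21 reads in v6.5, 4.70 and 0.103 in E14, 10.8 in miPS, 8.48 and 11.9 in the partial lines and 6.78 in MEF. Only the partial pair agreed within 1.5-fold in CPM, at 1.13 and 1.58, and no comparison was called at this locus.

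Inside 6720401G13Rik, the 27 loci lay in a row at chrX:47908877-47984133, many of them overlapping, beside a row for the gene itself. Together they took 16.4 CPM in miPS, 14.1 and 9.33 CPM in v6.5, 7.44 and 8.13 CPM in the partial lines, 4.05 CPM in MEF, and 2.86 and 1.86 CPM in E14. The gene row had another order, with 192 and 177 CPM in E14, 127 and 252 CPM in v6.5, 126 CPM in miPS, 71.5 and 71.8 CPM in the partial lines and 22.5 CPM in MEF. The loci thus held 1.47% and 1.04% of the reads of gene and loci together in E14, 9.93% and 3.57% in v6.5, and between 9.42% and 15.2% in the other 4 libraries.

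Firre as annotated was higher in mESC than in the partial lines, with a log2 fold of 1.40 ± 0.31 (SE; edgeR adjusted p = 0.0196). None of the 3 of its loci that passed the filter was called, and with no filter chrX:47934626-47965284 was called in the other direction, with a log2 fold of -3.73 ± 1.04 (SE; edgeR adjusted p = 0.0127). It had 4.94 and 7.02 reads in the partial lines, 6.99 in miPS, 2.86 and 2.67 in v6.5, 1.80 in MEF, and 0 and 0.0610 in E14, so every stem cell library was below both partial lines. The most abundant, chrX:47937858-47945123, had 0.590 and 2.04 reads in E14, 6.64 and 27.8 in v6.5, 17.3 in miPS, 3.44 and 5.49 in the partial lines and 6.66 in MEF. Its log2 fold of mESC over partial was -0.54 ± 0.63 (SE; edgeR adjusted p = 0.547), and of E14 over v6.5 it was -4.14 ± 0.77 (SE; edgeR adjusted p = 0.0824; DESeq2 adjusted p = 0.0448). The gene row had a log2 fold of E14 over v6.5 of 0.09 ± 0.33 (SE; edgeR adjusted p = 0.902). The longer loci chrX:47953926-47979616 and chrX:47956553-47979616 share their right end, and the reads went to one or the other unevenly: in v6.5 the first had 19.7 and 1.35 reads and the second 12.99 and 8.27, and in miPS they had 22.2 and 10.2. The E14 reads were 1.61 and 0.430 on the first and 3.07 and 7.72 on the second. In the partial lines the second had 10.4 and 4.66 reads and the first 1.63 and 1.32, and MEF had 4.82 and 1.95.

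A second accumulation of loci lay on chromosome 13, where 14 of the 22 loci of that chromosome stood in a row between chr13:65761080-66895600, with gaps under 500 kb. It was picked out after its values were seen, so the sums are a description with no test. The nearest genes were Gm10324, a zinc finger gene model, Uqcrb, a subunit of respiratory complex III, and Zfp369, a zinc finger gene. The 14 loci together had 75.5 reads in miPS, 40.8 and 58.3 in v6.5, 20.7 and 23.5 in E14, 1.46 and 4.53 in the partial lines and 5.26 in MEF. In CPM this was 9.92 in miPS, 5.22 and 4.71 in v6.5, 1.22 and 0.995 in E14, and at most 0.600 in the partial lines and MEF, so the pluripotent lines did not overlap with the others. Reads split with other rows may enter these sums. At the loci of this row with at least 10 reads over all libraries, at most 18.4% of the reads lay in whole values. At several of them that share was 0%. The part of split reads in the difference was not tested. Of the 14 loci, 11 and 7 had 0 reads in the partial lines and 10 in MEF, against 0 in miPS, 2 and 0 in v6.5 and 5 in each E14 library.

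The largest contributor was the first locus, chr13:65761080-65793576, with 2.00 and 4.00 reads in E14, 23.0 and 8.96 in v6.5, 18.1 in miPS, 0.211 and 2.91 in the partial lines and 3.33 in MEF. In CPM its E14 values, 0.118 and 0.169, lay above partial 1 at 0.0280 but below partial 2 at 0.385 and MEF at 0.380. Without this locus the sums were 57.4 reads in miPS, 17.8 and 49.3 in v6.5, 18.7 and 19.5 in E14, and at most 1.93 in each of the partial and MEF libraries. In E14 the reads instead fell mainly on chr13:66262287-66262686, with 11.3 and 10.4 reads there, against 4.44 and 6.09 in v6.5, 4.14 in miPS and at most 0.178 in the partial lines and MEF. The E14 libraries were deeper, and in CPM this locus overlapped between the pluripotent lines. It had 0.665 and 0.441 CPM in E14, 0.568 and 0.492 CPM in v6.5 and 0.544 CPM in miPS.

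**Figure D3:**
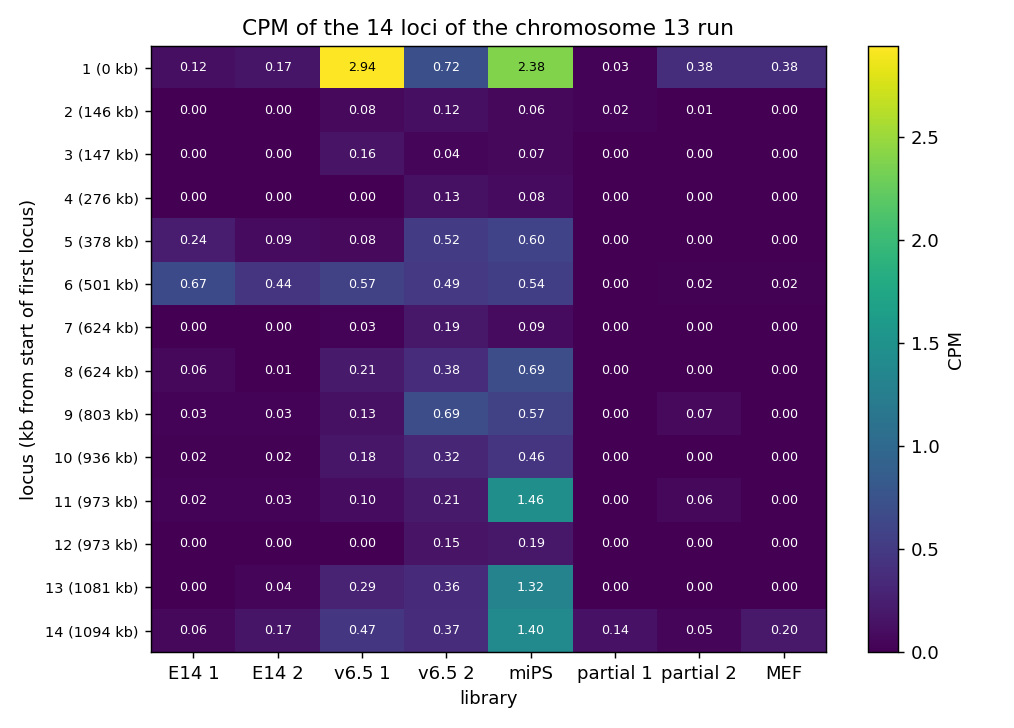
CPM (colour and printed value) of the 14 loci of the chromosome 13 row (y axis, in order, with the distance in kb from the start of the first locus) in the 8 libraries (x axis). The partial and MEF columns stay at or below 0.385 CPM, and the miPS column has values above 0 at all 14 loci.

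When loci that overlap each other were summed into 1 row each, an alternative chosen after seeing the data, 13 rows passed the filter. In mESC against partial 2 of them were called, beside 29.7% of all 16774 rows, and in miPS against partial 2, beside 9.90%. Beside the locus near Jmjd5, these were 2 groups of the chromosome 13 row. The group of 5 loci at chr13:65907419-66337648 had 15.3 and 12.4 reads in E14, 6.87 and 16.2 in v6.5, 10.3 in miPS, and between 0.178 and 0.216 in each partial and MEF library. Against the 3-read floor of both partial lines it was at least 4.20-fold higher in mESC (edgeR adjusted p = 0.0215) and at least 6.82-fold higher in miPS (edgeR adjusted p = 0.0479). The group of 6 loci at chr13:66563676-66895600 had 41.1 reads in miPS, 9.08 and 26.1 in v6.5, 2.27 and 6.97 in E14, 1.07 and 1.41 in the partial lines and 1.75 in MEF. In miPS the group was higher than in the partial lines by a log2 fold of 5.17 ± 0.87 (SE, edgeR adjusted p = 0.0203). The partial lines together had 2.48 reads, under the 3-read floor, so the group was at least 27.1-fold higher in miPS against that floor. Both groups passed the filter only through v6.5 and miPS libraries, where they were high, and their row was picked after its values were seen. These p-values are therefore descriptive and no independent support. The limit on split reads given above for the row holds for them too. These sums were not refitted with libraries left out.

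Loci with reads in the pluripotent lines and none elsewhere outnumbered the reverse. The same was true of the other rows, at 1403 against 103. At least 3 reads over the 5 stem and miPS libraries and 0 in the partial and MEF libraries were found for 25 loci (8.87%), beside 3.35% of the other rows. The reverse held for 1 locus (0.355%), beside 0.246% of the other rows. The pluripotent libraries held 68490458 reads and the others 23852810, so the first count had more reads to arise from. With the depths closer, 10 loci (3.55%) had at least 3 reads in miPS and 0 in the partial lines, although the partial pair was the deeper side. The reverse was seen for 5 loci (1.77%). Among the other rows the counts were 798 (1.91%) and 362 (0.865%), so those rows leaned the same way. In the partial lines, which held 15090170 reads, 13 loci (4.61%) had at least 3 reads with 0 in MEF, which held 8762640. The reverse held for 0 loci, beside 2.18% and 1.16% of the other rows.

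Some loci had whole read numbers throughout. Of the 69 loci with at least 10 reads over all libraries, 10 had them in all 8 libraries, to within 1e-09 reads. Of the 10, chr4:138054585-138055322, which lay 38544 bp from Camk2n1, an inhibitor of the kinase CaMKII, had 3 and 8 reads in E14, 0 and 1 in v6.5, 10 in miPS and 0 in both partial lines and MEF. At chr6:91391150-91391678, 22591 bp from Chchd4, a gene of mitochondrial protein import, there were 7 and 10 reads in E14, 6 and 7 in v6.5, 4 in miPS, 11 and 2 in the partial lines and 1 in MEF. The first was not seen outside the pluripotent lines, and the second was seen in every library; both were picked after their values were seen, as was a locus near Trap1a, an X-linked gene of a tumour rejection antigen. That locus, chrX:135889574-135892209, had 2.83 and 3.25 reads in E14, 14.9 and 7.71 in v6.5, 5.31 in miPS, 0.410 and 0 in the partial lines and 0 in MEF.

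Whether a locus moved with its nearest gene was examined for the 65 loci that had at least 10 reads and a tested nearest gene, in the fit with no filter. The points are not independent, since 17 loci shared 6720401G13Rik and the 65 loci had 41 genes between them, and loci and genes were read from the same libraries. The correlation of the log2 folds across loci was 0.555 in mESC against partial, 0.499 in miPS against partial and 0.329 in mESC against MEF (Pearson). It was 0.111 in E14 against v6.5, 0.0234 in partial against MEF and -0.0728 in miPS against mESC. The first 3 comparisons share libraries with each other, so their values are not separate evidence. Of the 282 loci, 1 lay within 50 kb of a gene on the pluripotency or fibroblast marker lists (Tbx3, at 1366 bp), and it had 1.44 reads in all.

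**Figure D4:**
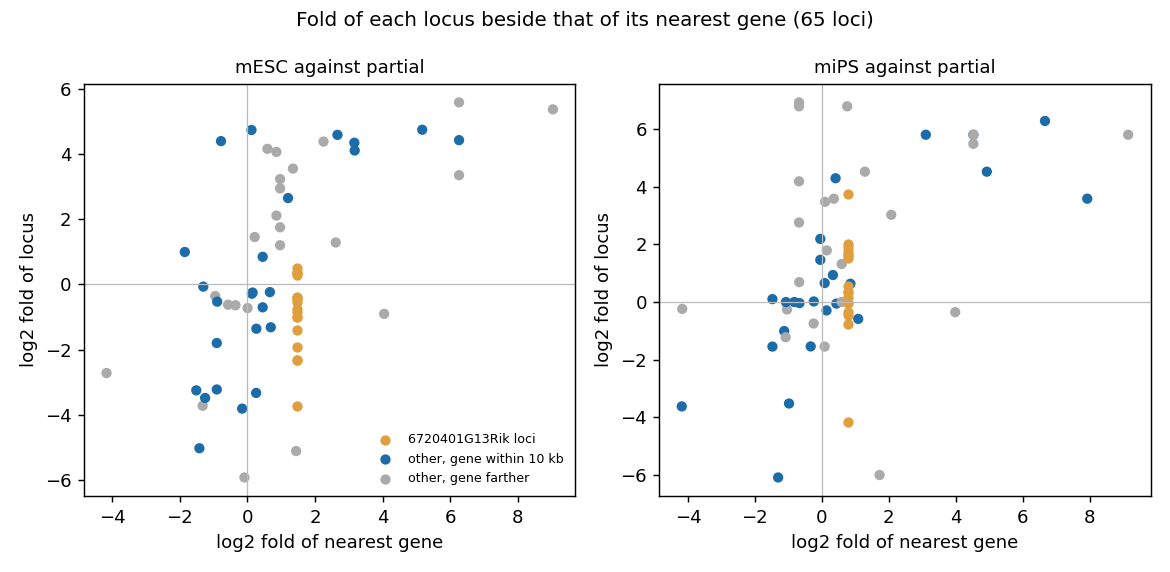
Log2 fold of a locus (y axis) against log2 fold of its nearest gene (x axis) for 65 loci, in mESC against partial (left) and miPS against partial (right). The 6720401G13Rik loci form a vertical line, since they share 1 gene, and the correlations over all points are 0.555 and 0.499.

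Annotated long noncoding RNAs were read from the same fit. Of 46 listed, 29 had a row and 27 were tested. In mESC against partial 9 were higher and 5 lower, beside 29.7% of all rows called in either direction, and in mESC against MEF 5 were higher and 6 lower, beside 28.6%. In miPS against partial 6 were higher and 2 lower, beside 9.88%, and in partial against MEF 3 were higher and 5 lower, beside 13.8%. In edgeR 0 were called in miPS against mESC (2 at an unadjusted p under 0.05, 0 in DESeq2). The same held in E14 against v6.5 (6 at an unadjusted p under 0.05, 2 in DESeq2). Of all 16773 rows, 1334 and 3140 had an unadjusted edgeR p under 0.05 in these 2 comparisons. Miat, a nuclear RNA first linked to myocardial infarction, had 294 and 472 CPM in the partial lines and between 5.42 and 12.5 CPM in the stem and miPS libraries, and was lower in mESC than in the partial lines by a log2 fold of -5.67 ± 0.37 (SE; edgeR adjusted p = 0.00105). Meg3, an imprinted RNA of the Dlk1-Dio3 region, had 1.56 and 4.62 CPM in the partial lines, between 178 and 616 CPM in the stem and miPS libraries and 1308 CPM in MEF.

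In the separate time course of E14 cells, which were treated with a scrambled hairpin or with hairpin A or B against Braveheart and sampled at days 0, 3, 6 and 9, the loci had no row of their own. Values exist there for the genes they overlap, with 1 library per culture and day and so no test. Gm10324, which 2 loci of the chromosome 13 row overlapped, went from 24.1 to 4.91 FPKM between days 0 and 9 in the scrambled culture and from 21.2 to 5.83 FPKM with hairpin A, and went from 13.4 to 30.3 FPKM with hairpin B. 6720401G13Rik went from 43.5 to 89.8 FPKM in the scrambled culture, from 36.2 to 93.0 FPKM with hairpin A and from 59.6 to 69.7 FPKM with hairpin B. The gene 1110038B12Rik stayed between 143 and 198 FPKM in all 12 libraries. These values describe the genes and cannot be read as levels of the loci.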

How the data were processed

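For the 8 libraries, the authors deposited expected counts and TPM per row. The submitters' processing notes name TopHat 1.3, RSEM and mm9 for them. The deposited FPKM of the 12 time course libraries were made by the authors with Cufflinks 1.3.0, per the same notes, and neither the annotation version nor strand use is given in the sources used here, so antisense and overlapping genes cannot be separated. The table had 42458 rows, of which 343 held no values. Positions of nearest genes came from the loci of the time course table, on the same build. The members and lists were chosen with earlier results of these data known.

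Expected counts were rounded to whole numbers, rows that reached 1 CPM in fewer than 2 libraries were dropped, and 6 comparisons were tested in 1 fit by edgeR 4.0.16 (quasi-likelihood, TMM scaling) in R 4.3.3, with Benjamini-Hochberg adjustment over all 16773 rows tested, two-sided, at 0.05. mESC is the mean of the E14 and v6.5 groups. DESeq2 1.42.0, other filters and left-out libraries were alternatives. Loci described one by one were the 8 with the highest mean CPM over the 5 groups, those called, and those past the filter near a marker gene (0 loci); others are named as picked after seeing values. Not used were 8 columns of ratios between time course libraries and 16 columns of bounds on TPM. One of the loci called with no filter is not reported here.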

Additional observations from a re-analysis of the deposited data

How the results depend on the processing

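All results rest on few reads per locus, so most loci could not show a difference at this depth. DESeq2 called 1 locus in mESC against MEF (33.5% of all rows) and 2 each in mESC against partial (33.4%) and E14 against v6.5 (6.78%). With no filter the calls were 5 in mESC against MEF, 10 in mESC against partial, 1 in partial against MEF, 3 in miPS against partial and 5 in E14 against v6.5, and at 5 CPM 0 in mESC against partial, with 1 locus left. Summing overlapping loci, chosen after seeing the data, gave 2 in mESC against partial and 2 in miPS against partial. Leaving out 1 library at a time gave between 0 and 3 calls in mESC against MEF, where the share of all rows called ran from 9.55% to 51.3%. The ranges were 0 and 5 in mESC against partial (11.8% to 51.4% of all rows), 0 and 1 in partial against MEF (5.69% to 29.5%), 0 and 2 in miPS against partial (2.46% to 22.7%), and 0 and 3 in E14 against v6.5 (0% to 26.3%). Between 9 and 12 loci were then tested, and the cause was not tested.

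The libraries of E14 and v6.5 share replicate numbers but nothing says that a number marks a pair. Their deviations correlated at 0.294 over 16773 genes, and with the replicate block 1 locus was called in mESC against partial and 0 in the other 5 comparisons. DESeq2 size factors kept all 6 counts. Leaving out loci within 5 kb of a gene left 3 loci, the called one among them, and only removed loci that were not called.

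At a minimum of 10 reads 7 and 8 loci were detected in the E14 libraries, 10 and 10 in v6.5, 11 in miPS, 5 in each partial line and 2 in MEF, so E14 then stood above the partial lines and MEF. At a minimum of 0.5 CPM, 7 and 4 were detected in E14, 23 and 26 in v6.5, 39 in miPS, 19 in each partial line and 11 in MEF. The correlation of loci with their nearest genes, within 50 kb and then 10 kb, was 0.358 and 0.273 in mESC against MEF, 0.603 and 0.540 in mESC against partial, 0.0266 and 0.0365 in miPS against mESC, 0.154 and 0.128 in partial against MEF, 0.683 and 0.710 in miPS against partial, and 0.0928 and 0.112 in E14 against v6.5. The sign turned in miPS against mESC, and fewer loci enter each value. No fold of a locus with an unadjusted p under 0.05 changed direction under the alternatives run.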
